A study of Mus musculus with 4 samples.

Results

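The genes described here form the step that commits a cell to divide: the kinases CDK6 and CDK4, their partners the D cyclins, the CDK inhibitors, and RB1, the protein that the kinases act on. They were 10 genes, named Cdk6, Cdk4, Ccnd1, Ccnd2, Ccnd3, Cdkn1a, Cdkn1b, Cdkn2a, Cdkn2c and Rb1, out of 22180 genes with at least one array row carrying a single gene symbol. All 10 had such a row. Rb1 was the only one with a choice of rows, and its brightest row, by the mean of the 4 arrays, was used.

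Signals came from whole-transcript arrays of Thy1+ LSK bone marrow cells, a lineage-negative, Sca-1 and Kit positive fraction enriched for haematopoietic stem cells. The 2 Nol3-/- MPN arrays lacked both copies of Nol3, which encodes an inhibitor of apoptosis, and carry the label MPN, taken here as myeloproliferative neoplasm. The 2 Nol3+/+ arrays were from mice with intact Nol3. Both groups were untreated, on the C57BL/6 background, and between 11 and 18 months old. The sample labels give MPN to Nol3-/- only, while the series title can be read as giving it to both genotypes. Genotype and disease label therefore follow the same division of the arrays and cannot be told apart. How the deletion was made, and whether an array held 1 animal or a pool, is not stated in the labels, so p-values measure the spread between these arrays only.

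As background, D cyclins accumulate when growth factors act on a cell, bind CDK4 or CDK6, and the complex phosphorylates RB1. Phosphorylated RB1 releases E2F transcription factors, which switch on the genes of DNA replication. The INK4 inhibitors, among them the products of Cdkn2a and Cdkn2c, bind CDK4 and CDK6 directly, whereas the Cip/Kip inhibitors, the products of Cdkn1a and Cdkn1b, bind cyclin-CDK complexes more broadly. In human stem cells the amount of CDK6 protein sets how fast a quiescent cell enters the cycle, and mice without Cdk6 have defects in several blood lineages.

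The arrays were alike in overall signal, with medians between 5.35 and 5.39 log2 units, but one stood apart. Pearson's r over the tested genes was 0.949 between the arrays of Nol3-/- MPN and 0.911 between those of Nol3+/+. Nol3+/+ replicate 1 gave lower values with the Nol3-/- MPN arrays (0.899 and 0.908) than Nol3+/+ replicate 2 gave (0.929 and 0.945). The points of these correlations are genes, not samples. Nol3 itself read 5.38 and 5.50 in Nol3-/- MPN and 5.31 and 5.52 in Nol3+/+, and since the labels do not place the deletion relative to the probes, this row does not check the genotype. Xist read 10.9 and 10.7 in Nol3-/- MPN and 5.43 and 5.28 in Nol3+/+. The Y-linked gene Eif2s3y read 4.24 and 3.97 in Nol3-/- MPN and 6.53 and 7.17 in Nol3+/+, and Uty and Kdm5d also lay lower in both Nol3-/- MPN arrays. By these genes the Nol3-/- MPN arrays read as female cells and the Nol3+/+ arrays as male cells. Sex, as read from this signal, thus followed the group division too. For every difference given here, that of Cdk6 included, it cannot be told apart from genotype and disease label. Of the sort markers, Kit read 8.38 and 7.39 in Nol3-/- MPN and 8.07 and 8.10 in Nol3+/+. Thy1 read 4.64 and 5.24 in Nol3-/- MPN and 4.74 and 5.02 in Nol3+/+, on both sides of the limit of 4.835 log2 units under which a gene was treated as dim. Ly6a, the gene of Sca-1, was not analysed here.

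By the row used for each gene, the kinase gene Cdk6 had the widest difference of the 10. Its log2 signal was 9.13 and 8.94 in the Nol3-/- MPN arrays (replicates 1 and 2, the order used throughout), against 7.80 and 8.39 in the Nol3+/+ arrays. Both Nol3-/- MPN arrays lay above both Nol3+/+ arrays, and the Nol3+/+ arrays were the more spread. Cdk6 averaged 9.03 ± 0.13 in Nol3-/- MPN and 8.09 ± 0.42 in Nol3+/+ (log2 signal, mean ± SD, n = 2 arrays each). The cells were measured in bulk, so more cells expressing Cdk6 and more Cdk6 RNA per cell cannot be told apart, here and for the other genes. The log2 difference, Nol3-/- MPN minus Nol3+/+, was 0.94 with a limma SE of 0.28 and a 95% interval from 0.22 to 1.66, which is 1.92-fold. The limma unadjusted p was 0.0195 and the adjusted p over all genes tested was 0.841, so Cdk6 did not pass the threshold. Among the 16635 genes tested, 202 (1.21%) lay at least as far above Nol3+/+ as Cdk6 did.

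The size of the Cdk6 difference turned on the Nol3+/+ arrays. It was 0.65 without Nol3+/+ replicate 1, the array that stood apart, and 1.23 without Nol3+/+ replicate 2. Leaving out Nol3-/- MPN replicate 1 gave 0.85, and leaving out Nol3-/- MPN replicate 2 gave 1.04. The limma unadjusted p was 0.0498 and 0.00482 without each Nol3+/+ array, and 0.11 and 0.065 without each Nol3-/- MPN array, while the adjusted p ran from 0.234 to 1 over these and the other settings.

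Cdk4 encodes the kinase most closely related to CDK6, and its group means lay close together. It read 6.34 and 6.05 in Nol3-/- MPN, against 6.42 and 6.15 in Nol3+/+, and the groups overlapped. The log2 difference was -0.09 (limma SE 0.20, interval from -0.60 to 0.42, adjusted p = 0.965). The interval of Cdk4 and that of Cdk6 share the range from 0.22 to 0.42, and whether the 2 differences differ from each other was not tested.

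**Figure D1:**
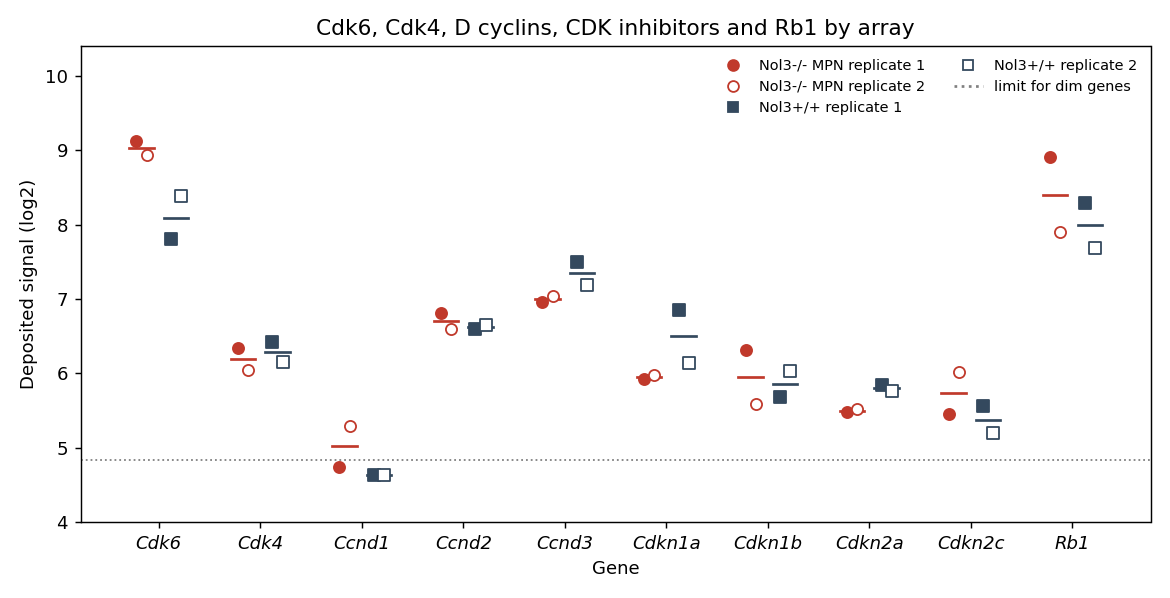
Deposited log2 signal (vertical axis) of the 10 genes (horizontal axis) in each array, with circles for Nol3-/- MPN and squares for Nol3+/+, filled for replicate 1 and open for replicate 2, a short line at each group mean, and the limit for dim genes dotted at 4.835. Of the rows shown, that of Cdk6 has the group means farthest apart, at 9.03 in Nol3-/- MPN and 8.09 in Nol3+/+, while Ccnd1 sits at the limit.

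The promoter sequences of both kinase genes are shown because each holds an E-box, the letters CACGTG, which Myc and related factors bind, and because Myc is among the regulators described further on. The 250 bases before the annotated start are given 5′ to 3′ from RefSeq, build GRCm38.p6, with motif matches in capitals. The start used for Cdk4 is the boundary of the gene in RefSeq, whereas that used for Cdk6 is not. Motifs were searched on both strands as TTCCCGC and TTGGCGC (E2F), CACGTG (E-box), GGGCGG (GC box), CCAAT, TTCNNNGAA (STAT) and TGTGGT (RUNX). Of the 10 genes, 7 had a promoter in the RefSeq table, with 11 starts in all.
Cdk6, chr5:3343643-3343892, plus strand: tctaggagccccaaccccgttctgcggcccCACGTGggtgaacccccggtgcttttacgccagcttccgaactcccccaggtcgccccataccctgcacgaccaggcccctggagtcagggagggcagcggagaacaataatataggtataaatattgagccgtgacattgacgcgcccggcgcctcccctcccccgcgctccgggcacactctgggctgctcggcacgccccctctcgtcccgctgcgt
Cdk4, chr10:127063285-127063534, plus strand: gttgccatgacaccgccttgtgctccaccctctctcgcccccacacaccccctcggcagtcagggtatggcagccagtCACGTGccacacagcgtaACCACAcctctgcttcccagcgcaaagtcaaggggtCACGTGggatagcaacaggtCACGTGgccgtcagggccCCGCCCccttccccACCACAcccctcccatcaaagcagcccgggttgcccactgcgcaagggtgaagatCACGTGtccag
The Cdk6 window held 1 E-box, beginning 220 bases before the start, and no other motif searched. The Cdk4 window held 4 E-boxes, beginning 172, 118, 98 and 11 bases before the start, together with 1 GC box and 2 RUNX motifs. Of the 11 member windows, only these 2, shown because they hold it, had an E-box. Over all genes an E-box was found in 6.02% of 32851 windows of the same length. These matches describe letters and not binding.

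The D cyclins showed no common direction. Ccnd2, the D cyclin gene with the closest group means, read 6.81 and 6.59 in Nol3-/- MPN, against 6.60 and 6.65 in Nol3+/+. The groups overlapped, and the log2 difference was 0.08 (limma SE 0.19, interval from -0.42 to 0.57, adjusted p = 0.971). Ccnd3, which is needed for the expansion of early lymphoid cells in mice, read 6.96 and 7.04 in Nol3-/- MPN, against 7.50 and 7.19 in Nol3+/+. Both Nol3-/- MPN arrays lay below both Nol3+/+ arrays, with a log2 difference of -0.34 (limma SE 0.22, interval from -0.91 to 0.22, adjusted p = 0.863). Ccnd1 read 4.74 and 5.30 in Nol3-/- MPN, against 4.63 and 4.63 in Nol3+/+. It was left out of the test as dim, since its mean over all arrays lay just under the limit. That limit is a percentile of the signals and not a measured background. Without the limit its log2 difference was 0.38 (limma SE 0.21, interval from -0.14 to 0.91, adjusted p = 0.881).

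The Cip/Kip inhibitor genes gave unlike patterns. Cdkn1a, a p53 target whose loss in mice lets more stem cells enter the cycle, read 5.92 and 5.98 in Nol3-/- MPN, against 6.85 and 6.14 in Nol3+/+. Both Nol3-/- MPN arrays lay below both Nol3+/+ arrays, and Nol3+/+ replicate 1 was the high one. The log2 difference was -0.55 (limma SE 0.27, interval from -1.24 to 0.15, adjusted p = 0.841). Without Nol3+/+ replicate 1 it was -0.19 and without Nol3+/+ replicate 2 it was -0.90, so its size rested largely on one array. Cdkn1b read 6.31 and 5.59 in Nol3-/- MPN, against 5.68 and 6.04 in Nol3+/+. The Nol3+/+ values lay between the Nol3-/- MPN values, with a log2 difference of 0.09 (limma SE 0.29, interval from -0.63 to 0.82, adjusted p = 0.976).

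Of the INK4 genes, Cdkn2a had the tightest replicates of the tested members. Its log2 signal was 5.48 and 5.52 in Nol3-/- MPN, against 5.84 and 5.77 in Nol3+/+, and both Nol3-/- MPN arrays lay below both Nol3+/+ arrays. It averaged 5.50 ± 0.02 in Nol3-/- MPN and 5.80 ± 0.05 in Nol3+/+ (mean ± SD, n = 2 arrays each). The log2 difference was -0.30 (limma SE 0.13, interval from -0.64 to 0.03, unadjusted p = 0.066, adjusted p = 0.841), and it stayed between -0.34 and -0.27 whichever array was left out. Cdkn2c, whose loss in mice enlarges the stem cell pool, read 5.45 and 6.02 in Nol3-/- MPN, against 5.56 and 5.19 in Nol3+/+. The groups overlapped, with a log2 difference of 0.36 (limma SE 0.24, interval from -0.26 to 0.98, adjusted p = 0.865).

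Cdkn2a makes a pair of unrelated proteins from separate first exons. The upstream start gives ARF, which stabilises p53, and the downstream start gives the INK4 inhibitor that binds CDK4 and CDK6. The gene had a single array row, so the signal is given for the gene and not for either product. Both start regions are shown, since the row covers a gene with 2 promoters of unlike composition.
Cdkn2a, upstream start, chr4:89294620-89294869, minus strand: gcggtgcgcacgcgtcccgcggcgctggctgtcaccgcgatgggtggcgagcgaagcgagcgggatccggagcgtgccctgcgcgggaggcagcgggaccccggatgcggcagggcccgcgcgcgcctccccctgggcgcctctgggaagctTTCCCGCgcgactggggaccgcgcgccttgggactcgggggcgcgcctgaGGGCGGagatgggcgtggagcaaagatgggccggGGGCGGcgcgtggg
Cdkn2a, downstream start, chr4:89282193-89282442, minus strand: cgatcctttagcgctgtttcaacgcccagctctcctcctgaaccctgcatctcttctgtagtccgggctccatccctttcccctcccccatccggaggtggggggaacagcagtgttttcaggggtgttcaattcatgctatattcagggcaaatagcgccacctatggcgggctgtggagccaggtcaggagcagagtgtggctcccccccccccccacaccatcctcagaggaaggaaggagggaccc
The upstream window was 78.4% G and C and held 1 E2F motif (TTCCCGC or its complement), beginning 98 bases before the start, and 2 GC boxes. The downstream window was 60% G and C, against 53.2% over all windows, and held none of the motifs searched. The E2F letters TTCCCGC were found in 3.82% of all windows and the GC box in 32.7%.

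Rb1, the substrate of the kinases, was represented by rows that did not move alike. The row with the highest mean read 8.91 and 7.90 in Nol3-/- MPN, against 8.29 and 7.69 in Nol3+/+. The groups overlapped, with a log2 difference of 0.41 (limma SE 0.42, interval from -0.66 to 1.48, adjusted p = 0.917). The other row assigned to Rb1 alone read 6.41 and 6.52 in Nol3-/- MPN, against 4.52 and 5.95 in Nol3+/+, a log2 difference of 1.23 with both Nol3-/- MPN arrays above both Nol3+/+ arrays. The lower of its Nol3+/+ signals lay under the limit for dim genes. When both rows were averaged, the log2 difference of Rb1 was 0.82 (limma SE 0.27, unadjusted p = 0.0279, adjusted p = 0.838). A further pair of rows carried the symbols of both Rb1 and Lpar6, a receptor gene that lies within an intron of Rb1, and these were not assigned to either gene. They went the other way, with log2 differences of -0.19 and -0.59.

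**Figure D2:**
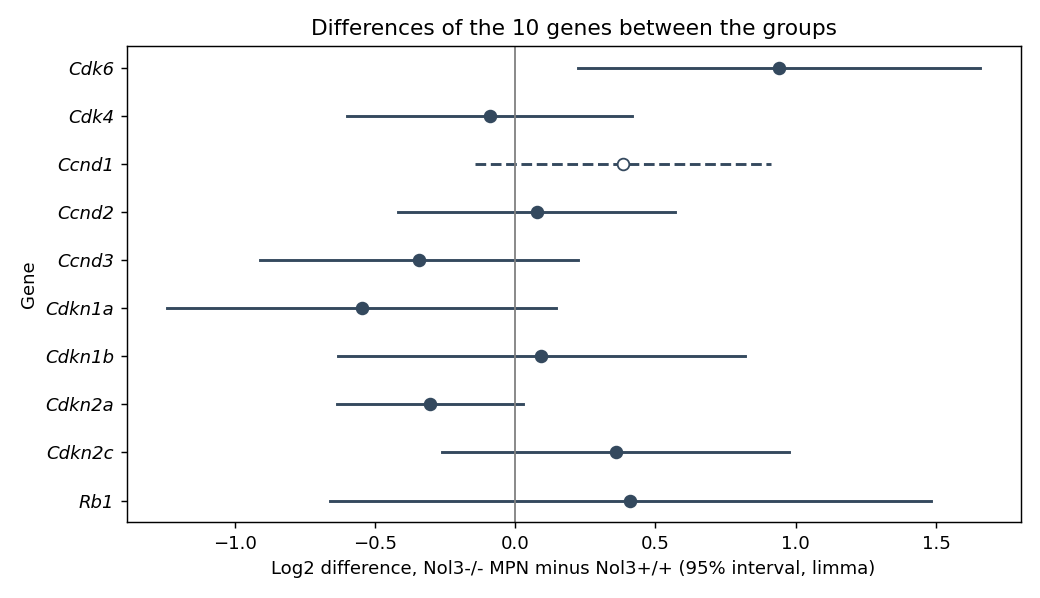
Log2 difference between Nol3-/- MPN and Nol3+/+ (horizontal axis, Nol3-/- MPN minus Nol3+/+) for each of the 10 genes, with points for the estimate and lines for limma's 95% interval. Ccnd1, dashed and open, comes from the fit without the limit for dim genes. The interval of Cdk6, from 0.22 to 1.66, is the one that does not include 0.

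Counts over the 9 tested members were set beside those over all genes tested. None of the 9 passed the adjusted threshold (limma), which 0.024% of the 16635 genes passed. Cdk6 was the only one of the 9 at a limma unadjusted p under 0.05, a level reached by 5.8% of the genes tested, 3.73% with higher and 2.07% with lower signal in Nol3-/- MPN. Of the 9 members, 5 had higher and 4 had lower mean signal in Nol3-/- MPN, and 51.7% of all tested genes had higher. Cdk6 lay above in both Nol3-/- MPN arrays, as 19.7% of genes did, and Ccnd3, Cdkn1a and Cdkn2a lay below, as 15.9% of genes did. The groups thus did not overlap for 4 of the 9, and for 35.5% of all genes tested. The median log2 difference was 0.08 for the 9 members and 0.01 for all genes tested. The lowest and highest member differences were -0.55 for Cdkn1a and 0.94 for Cdk6.

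Leaving out arrays changed the direction of 4 of these 9 genes. Cdk4 ran from -0.23 to 0.052, Ccnd2 from -0.035 to 0.19, Cdkn1b from -0.27 to 0.45 and Rb1 from -0.094 to 0.91. Cdk6, Ccnd3, Cdkn1a and Cdkn2a could not change direction this way, since their groups do not overlap. Cdkn2c, whose groups overlapped, kept its direction with each array left out in turn. Cdkn2c ran from 0.08 to 0.64 and Ccnd3 from -0.50 to -0.19.

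**Figure D3:**
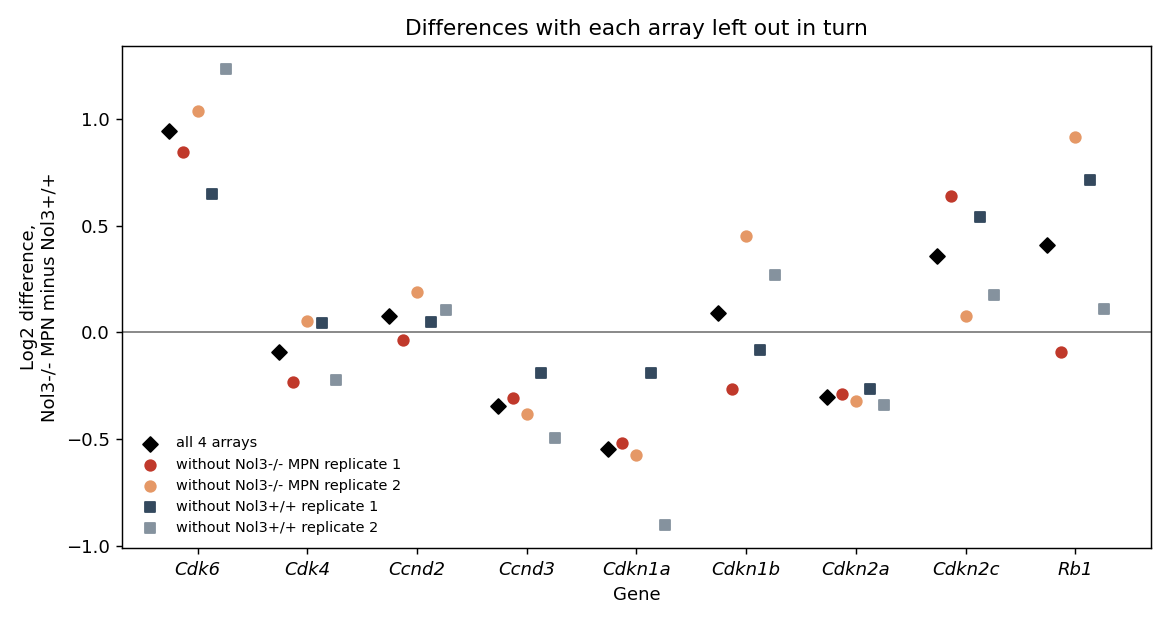
Log2 difference (vertical axis, Nol3-/- MPN minus Nol3+/+) of the 9 tested genes (horizontal axis) with all 4 arrays (black diamonds) and with each array left out in turn (circles for Nol3-/- MPN arrays left out, squares for Nol3+/+ arrays). Cdk6, whose groups do not overlap and which so could not change direction, lies between 0.65 and 1.23. Points of Cdk4, Ccnd2, Cdkn1b and Rb1 lie on both sides of 0.

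Next come the other pocket proteins, which are relatives of RB1, and the genes downstream of RB1. Of 12 pocket protein and E2F genes, 11 were tested, 7 with higher and 4 with lower mean signal in Nol3-/- MPN, and 0 passed the limma threshold, adjusted or unadjusted. Their median log2 difference was 0.24, and it shrank when some of the arrays were left out. It was 0.041 without Nol3-/- MPN replicate 1, 0.099 without Nol3-/- MPN replicate 2 and 0.037 without Nol3+/+ replicate 1. Without Nol3+/+ replicate 2 it stayed at 0.24, and with no limit for dim genes it was 0.16. E2f3, an activating E2F, read 6.43 and 6.35 in Nol3-/- MPN, against 5.96 and 6.05 in Nol3+/+, a log2 difference of 0.38 (limma SE 0.16, adjusted p = 0.841). Tfdp2, a dimerisation partner of E2F proteins, read 7.75 and 7.95 in Nol3-/- MPN, against 7.20 and 7.57 in Nol3+/+, a difference of 0.47 (limma SE 0.25). Both Nol3-/- MPN arrays lay above both Nol3+/+ arrays for 4 of the 11 (E2f3, E2f5, E2f8 and Tfdp2, E2f5 and E2f8 being named after their values were seen), and for 19.7% of all genes tested.

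E2F target genes of the G1/S transition had 15 of 16 members tested, 10 with higher and 5 with lower mean signal in Nol3-/- MPN, and a median log2 difference of 0.12, which was 0.058 without Nol3-/- MPN replicate 2. At a limma unadjusted p under 0.05 there were 2 with higher and 0 with lower signal, beside 3.73% and 2.07% of all genes tested, and 0 passed the adjusted threshold. Mcm6, a subunit of the replicative helicase, read 9.11 and 8.84 in Nol3-/- MPN, against 8.05 and 8.28 in Nol3+/+, a difference of 0.81 (limma SE 0.23, adjusted p = 0.841). Cdc6, which loads that helicase onto origins, read 6.48 and 6.45 in Nol3-/- MPN, against 5.72 and 6.07 in Nol3+/+, a difference of 0.57 (limma SE 0.19, adjusted p = 0.841). For both genes the groups did not overlap, as for 35.5% of all genes tested. The limma unadjusted p of Mcm6 was 0.118 without Nol3-/- MPN replicate 1. That of Cdc6 was 0.101 without Nol3-/- MPN replicate 1, 0.0908 without Nol3-/- MPN replicate 2 and 0.136 without Nol3+/+ replicate 1.

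Proliferation markers had all 6 of 6 members with higher mean signal in Nol3-/- MPN, beside 51.7% of all genes tested. Their median log2 difference was 0.20 (0.085 without Nol3+/+ replicate 2), against 0.01 over all genes tested. The smallest difference was 0.04, for Aurka, and 0 of the 6 were at a limma unadjusted p under 0.05. Mki67, the gene of the Ki-67 antigen of cycling cells, read 9.12 and 8.94 in Nol3-/- MPN, against 8.45 and 8.88 in Nol3+/+, a difference of 0.37 (limma SE 0.25). Birc5, a gene of mitosis, read 5.64 and 5.83 in Nol3-/- MPN, against 5.43 and 5.49 in Nol3+/+, a difference of 0.27 (limma SE 0.14).

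Of 8 genes for cyclins E, A and B with CDK1 and CDK2, 6 were tested, 3 with higher and 3 with lower mean signal in Nol3-/- MPN, with a median log2 difference of -0.01, which turned to 0.12 without Nol3+/+ replicate 1 and ran down to -0.050 when Nol3-/- MPN replicate 2 was left out. Cdk1, the mitotic kinase, read 7.79 and 7.13 in Nol3-/- MPN, against 7.40 and 6.59 in Nol3+/+, overlapping groups with a difference of 0.46 (limma SE 0.38). Ccna1 differed by -0.10 (limma SE 0.13). None of the 6 reached a limma unadjusted p under 0.05.

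Among the other CDK inhibitors, all 4 of 4 were tested, with 1 higher and 3 lower in mean signal and a median log2 difference of -0.16, which was -0.10 without Nol3+/+ replicate 1. Cdkn3 encodes a phosphatase that acts on CDKs and is itself high in dividing cells. It read 7.53 and 7.27 in Nol3-/- MPN, against 6.41 and 6.98 in Nol3+/+, a difference of 0.71 (limma SE 0.28, unadjusted p = 0.0479, adjusted p = 0.841). The difference was 0.43 without Nol3+/+ replicate 1 (unadjusted p = 0.184). The unadjusted p was also above 0.05 without either Nol3-/- MPN array (0.195 and 0.0894) and with the replicate number as a block (0.0687). The INK4 genes Cdkn2b, which neighbours Cdkn2a on chromosome 4, and Cdkn2d differed by -0.37 and -0.20, and the Kip gene Cdkn1c by -0.12. Of these 3, which were named after their values were seen, Cdkn2b and Cdkn2d lay lower in both Nol3-/- MPN arrays, as 15.9% of all genes tested did.

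Genes of CDK activation and inhibitor turnover had 9 of 10 members tested, 6 with higher and 3 with lower mean signal in Nol3-/- MPN, a median log2 difference of 0.22, and 0 at a limma unadjusted p under 0.05. That median was 0.042 without Nol3-/- MPN replicate 1, 0.39 without Nol3-/- MPN replicate 2 and 0.13 without Nol3+/+ replicate 1. Cdc37, the co-chaperone that hands kinases such as CDK4 to HSP90, read 5.68 and 5.64 in Nol3-/- MPN, against 5.14 and 5.43 in Nol3+/+, a difference of 0.38 (limma SE 0.15, adjusted p = 0.841). Mnat1, a subunit of the CDK-activating kinase, differed by 0.51 (limma SE 0.33). Skp2, which marks the Cdkn1b protein for degradation, was dim.

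Regulators that act on these genes had 10 of 12 members tested, 6 with higher and 4 with lower mean signal in Nol3-/- MPN, and a median log2 difference of 0.12, which was 0.25 without Nol3+/+ replicate 1. Myc, which induces Ccnd2 and Cdk4 and represses Cdkn1a, read 8.55 and 8.62 in Nol3-/- MPN, against 8.16 and 7.93 in Nol3+/+, a difference of 0.54 (limma SE 0.22, unadjusted p = 0.0578). Kmt2a, a histone methyltransferase gene whose leukaemic fusions depend on CDK6, read 7.01 and 7.29 in Nol3-/- MPN, against 6.27 and 6.79 in Nol3+/+, a difference of 0.62 (limma SE 0.26, unadjusted p = 0.0633). The groups did not overlap for either gene, as for 35.5% of all genes tested, and 0 of the 10 passed the threshold.

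**Figure D4:**
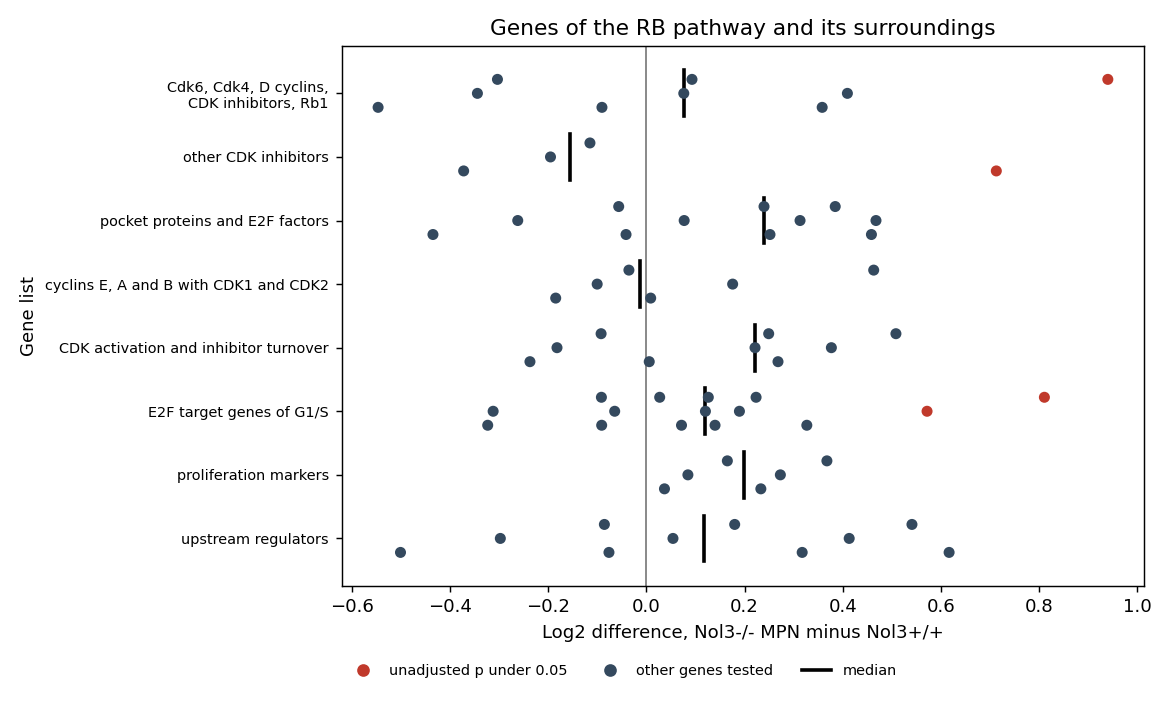
Log2 difference (horizontal axis, Nol3-/- MPN minus Nol3+/+) of every tested gene in 8 lists (vertical axis), with red points at a limma unadjusted p under 0.05 and black bars at list medians. Red points are Cdk6, Cdkn3, Mcm6 and Cdc6, and the medians lie between -0.16 for the other CDK inhibitors and 0.24 for the pocket proteins and E2F factors.

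The 5 genes whose pattern over the 4 arrays was most like that of Cdk6 were Rps25, Alg14, Ndufa9, Cdc37l1 and Dusp12. Likeness was the root mean square distance between log2 signals centred on each gene's own mean, over 14108 protein-coding genes tested. Rps25, a ribosomal protein gene, was closest at 0.0334, with 9.38 and 9.12 in Nol3-/- MPN and 8.06 and 8.59 in Nol3+/+. The distances of the other 4 were between 0.0502 and 0.0608, and 144 genes lay within 0.2. In each of the 5, as in Cdk6, Nol3+/+ replicate 1 was the lowest array, which follows from choosing them by closeness to Cdk6 over these arrays. Distances of the other members, which were not picked for closeness, ran from 0.437 for Ccnd1 to 0.879 for Cdkn1a.

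Markers of cell types that the sort could hold were set beside these values. Of 11 stem and progenitor markers, 9 were tested, 5 with higher and 4 with lower mean signal in Nol3-/- MPN, with summed log2 signal of 63.1 and 60.4 in Nol3-/- MPN and 60.6 and 61.8 in Nol3+/+. Hlf, a stem cell transcription factor gene, read 5.37 and 5.50 in Nol3-/- MPN, against 6.44 and 6.09 in Nol3+/+ (difference -0.83, limma SE 0.18, adjusted p = 0.841). Cd48, a marker of multipotent progenitors named after its values were seen, had the widest difference of the list. It read 8.99 and 8.01 in Nol3-/- MPN, against 6.42 and 7.76 in Nol3+/+ (difference 1.41, limma SE 0.56, unadjusted p = 0.0502), with Nol3+/+ replicate 1 the lowest array, as for Cdk6. Of 11 granulocyte and monocyte markers, 7 were tested, 2 with higher and 5 with lower mean signal in Nol3-/- MPN, and 4 were dim, with sums of 47.0 and 46.4 in Nol3-/- MPN and 46.4 and 51.2 in Nol3+/+. The calprotectin genes S100a8 and S100a9 differed by -0.86 and -0.83, whereas Mpo and the dim gene Ly6g, named after their values were seen, differed by 0.48 and 0.83. Of 6 megakaryocyte markers, 5 were tested, 2 with higher and 3 with lower mean signal in Nol3-/- MPN, with sums of 26.9 and 28.5 in Nol3-/- MPN and 27.9 and 27.2 in Nol3+/+, and Pf4 was the one at a limma unadjusted p under 0.05, with a difference of 0.59. The lists of erythroid markers (5 of 8 tested), B, T and NK cell markers (7 of 9) and basophil, mast cell and eosinophil markers (4 of 5) had 0 members at a limma unadjusted p under 0.05. Their sums were 31.6 and 32.04 in Nol3-/- MPN and 31.3 and 30.9 in Nol3+/+ for the first, 38.7 and 38.6 in Nol3-/- MPN and 38.3 and 38.7 in Nol3+/+ for the second, and 25.9 and 27.4 in Nol3-/- MPN and 25.3 and 27.6 in Nol3+/+ for the last. The part of these markers in the difference of Cdk6 was not tested. That of sex, which as read from Xist and the Y-linked genes followed the group division, cannot be told apart from genotype and disease label.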

How the data were processed

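Per the labels' protocols, total RNA of sorted, uncultured cells was amplified by single-primer isothermal amplification and biotin-labelled for Affymetrix whole-transcript arrays. The submitters' processing notes name Affymetrix Expression Console and Transcriptome Analysis Console, with no version, and the sources used here do not state the background correction or normalization. What the authors deposited was 1 table of 41345 rows, whose values were treated as log2 signals; the log base, which no source states, was taken from the range of the values, so every fold rests on it. The number of arrays limits the precision.

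Of the rows, 23521 had 1 gene symbol in the platform annotation, 1814 several and 16010 none. Single-symbol rows stood for 22180 genes, 1082 of them with several rows. Genes under the 25th percentile of mean signal (5545) were left out as dim, and 16635 were tested. Tests used limma (version 3.58.1, under R 4.3.3), with eBayes fitting a trend of the variance on mean signal; there were 2 residual degrees of freedom and 3.19 from the prior. Benjamini-Hochberg adjustment ran over the 16635 genes, and an adjusted p under 0.05 was called. The code was tested on simulated data. Gene types and chromosomes came from a RefSeq table of assembly GRCm38.p6, which held 21994 of the genes.

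The members, lists and alternatives were chosen with earlier results of these data known. The genes named were all 10 members, and from each pathway list those at an unadjusted p under 0.05 or else the 2 with the smallest p. Named as well were marker genes at that p with Kit and Thy1, the checks of genotype and sex-linked signal, and the 5 genes nearest Cdk6 in pattern. Other list genes served as examples. Alternatives were a block for the replicate number, leaving out each array, no variance trend, quantile normalization, other limits for dim genes, averaged rows, and X- and Y-linked genes left out.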

Additional observations from a re-analysis of the deposited data

How the results depend on the processing

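With 2 arrays a group, an exact permutation test of a single gene could not give a p below 0.333, and the limma intervals above leave room for differences of either sign in 8 of the 9 tested members. No member passed the adjusted threshold under any of the 11 alternatives. The Cdk6 difference lay between 0.65 and 1.23 over the 11. Its groups do not overlap, so leaving out an array could not turn its direction. The alternatives that kept all arrays left it at 0.94 by construction, apart from quantile normalization (0.96). The labels give only a shared replicate number, and deviations of same-numbered arrays correlated at 0.0485. Whether the numbers pair the arrays is not stated and cannot be told from that value. With the replicate number as a block, the Cdk6 difference was 0.94 (limma unadjusted p = 0.0301, adjusted p = 0.832), and 0 genes passed the adjusted threshold against 4 without it, while 972 and 965 reached an unadjusted p under 0.05. No gene passed with X- and Y-linked genes left out either, where 898 reached that p. With each array left out in turn, between 0 and 39 genes passed and between 572 and 1894 reached that p. The 0 belong to the fits without either Nol3-/- MPN array, and 18 and 39 to those without Nol3+/+ replicate 1 and without Nol3+/+ replicate 2. A lone array was then assumed to vary like the other group. Between 0 and 2 members reached that p with an array left out, and 2 did with averaged rows, where Rb1 joined Cdk6. The median difference of the tested members ran from -0.23 (without Nol3-/- MPN replicate 1) to 0.10 over the fits with an array left out. Direction turned in Cdk4 (-0.23 to 0.052), Ccnd2 (-0.035 to 0.19), Cdkn1b (-0.27 to 0.45) and Rb1 (-0.094 to 0.91) only where an array was left out; beyond the fewer arrays, the cause was not tested.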
